A study of Homo sapiens with 8 samples.

Results

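The 10 genes described here encode the subunits of NF-kB and the IkB proteins that bind them. The subunits are NFKB1, NFKB2, RELA, RELB and REL, and the IkB proteins are NFKBIA, NFKBIB, NFKBIE, NFKBIZ and BCL3. They were taken by name, and the values are those of all probe sets that carry one of these symbols alone, 21 of the 49395 probe sets in all. The genes were measured in MIA PaCa-2, a cell line from a human pancreatic carcinoma, after 24 h with 30 μM pachymic acid (PA), a triterpenoid of the fungus Poria cocos dissolved in DMSO, or with DMSO alone. There were 4 arrays of PA-treated cells and 4 of DMSO-treated cells, Affymetrix Human PrimeView chips that read the 3′ end of transcripts. A single cell line, dose and time were measured, and the sources do not say whether the 4 cultures of a group came from separate passages or days, so p-values measure the spread between these samples. The number of arrays limits the precision.

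NF-kB is a family of dimeric transcription factors. In resting cells the classical inhibitors, encoded by NFKBIA, NFKBIB and NFKBIE, hold the dimers in the cytoplasm. Upon signals such as TNF the IKK kinase marks these inhibitors for degradation, the dimers enter the nucleus, and the genes they switch on include several of their own inhibitors, which closes a feedback loop. NFKBIZ and BCL3 are IkB proteins of the nucleus, where they modify transcription by the p50 and p52 subunits. Constitutive NF-kB activity is well known in pancreatic carcinoma.

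Values are log2 signals after robust multi-array averaging (RMA), so a difference of 1 is a 2-fold change, and signals of different probe sets are not comparable in level. Probe sets were tested if the PA or the DMSO mean reached 4, and a probe set was called raised or lowered by PA at an adjusted p under 0.05 from limma, with Benjamini-Hochberg adjustment over the 38748 probe sets tested. Each gene is represented by its brightest probe set, and its other probe sets are given beside it. The brightest probe sets of RELA, NFKBIA and BCL3 are marked by the manufacturer as able to bind transcripts of other genes. The array medians lay between 5.71 and 5.77, and arrays correlated at 0.9964 to 0.9977 within a group and at 0.9931 to 0.9964 between groups. As a check of the label, KRT8, KRT18 and KRT19, keratins of simple epithelia, had log2 signals of 11.43 or more on every array and vimentin (VIM) of 14.35 or more, while KRT7, CDH1 and EPCAM, also epithelial, stayed at 4.55 or lower. PTPRC, the pan-leukocyte marker, was at 3.38 or lower, and the islet markers GCG and SST were below 4 in both groups. Several markers of other cell types had signals above 4, among them COL1A2 of fibroblasts, CDH5 of endothelium and PRSS1 of acinar cells. The summed log2 signal of the 5 fibroblast markers was 31.52 to 31.81 in PA arrays and 32.09 to 32.48 in DMSO arrays. That of the 3 endothelial markers was 18.39 to 18.61 in PA and 17.62 to 18.33 in DMSO arrays. For the 3 acinar markers measured it was 16.2 to 16.39 in PA and 15.68 to 16.09 in DMSO arrays. These sums did not overlap between the groups. Among all single probe sets tested, PA arrays lay all above DMSO arrays at 11.1% and all below at 12.2%. Within their lists COL1A2 (mean 9.88 in PA and 10.4 in DMSO arrays) and CDH5 (7.93 and 7.54) differed most. COL1A1 went against the fibroblast sum (5.235 in PA and 5.095 in DMSO arrays). The sums of the keratins with VIM, of CDH1 with EPCAM and of GCG with SST overlapped. Of the 7 leukocyte markers 4 had mean signals of 4 or more, CD14 and CD79A among them. The summed log2 signal of the 6 measured was 28.35 to 29.06 in PA arrays and 28.89 to 29.96 in DMSO arrays. Of these 6, CD14 differed most (mean 6.83 in PA and 7.35 in DMSO arrays). The part of these markers in the results was not tested.

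PA raised the classical IkB inhibitors, the nuclear NFKBIZ and the subunits RELB and NFKB1. At their brightest probe sets 6 of the 10 genes were raised and 0 lowered, against 8.23% of all 15226 genes raised and 10.5% lowered. The members were chosen with earlier results of these data known, so this count describes them and is not a test of the family. The raised genes were NFKBIZ, RELB, NFKBIA, NFKBIE, NFKB1 and NFKBIB, with NFKBIZ at 2.08-fold as the largest change. RELA, REL, NFKB2 and BCL3 did not pass the test. Of the 21 probe sets 18 could be tested, of which 10 were raised, 0 lowered and 8 not called, beside 8.0% raised and 9.07% lowered among all probe sets tested. Of the raised probe sets 5 changed 1.5-fold or more, those of NFKBIZ, RELB and NFKBIA, beside 0.475% raised and 0.658% lowered to this extent among all. The 4 PA arrays lay above the 4 DMSO arrays at 12 of the 18 probe sets and below them at 1, where 11.1% and 12.2% of all probe sets did so. The median log2 change was 0.39 over the 10 genes and 0.02 over all genes. Each array holds RNA of a whole culture, so more RNA per cell and more cells expressing a gene cannot be told apart.

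**Figure D1:**
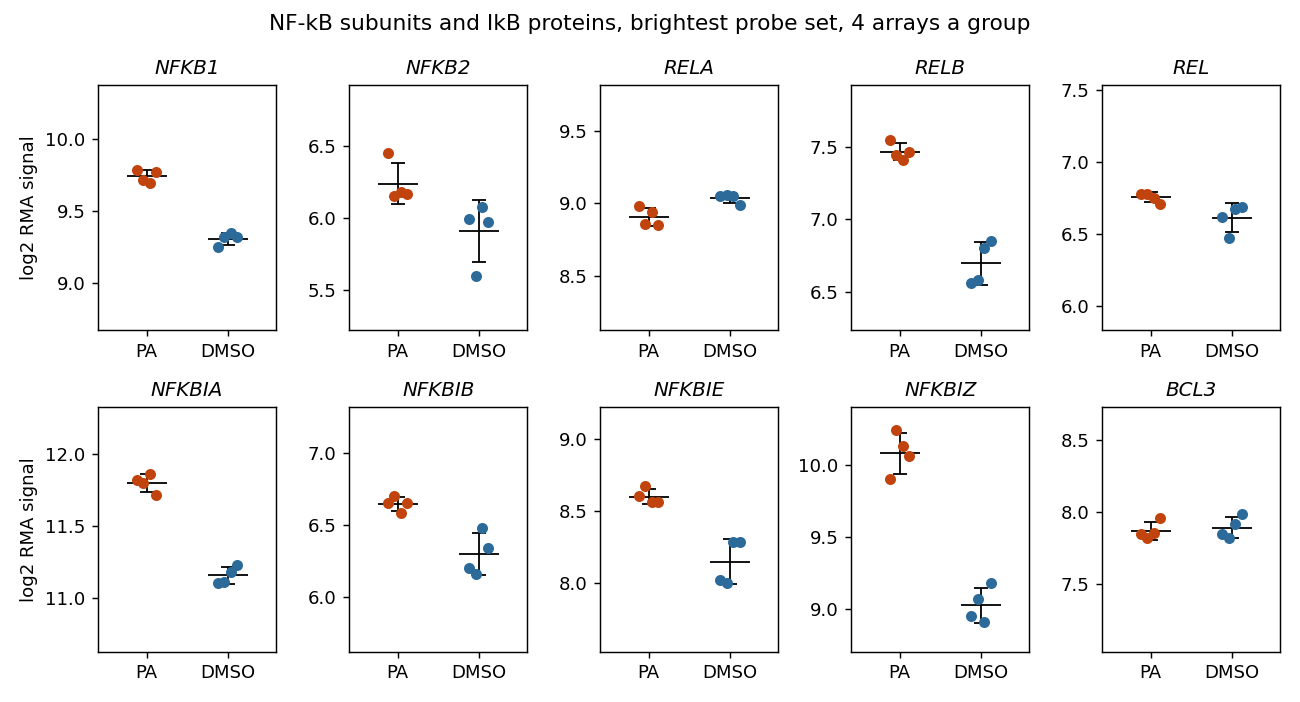
Log2 RMA signal (vertical axis, spanning the same range in each panel) of the brightest probe set of each member in 4 PA arrays (left, orange) and 4 DMSO arrays (right, blue), with mean and SD. The groups are farthest apart in NFKBIZ, RELB and NFKBIA, and they overlap in BCL3.

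A technical measure was on average higher in PA arrays, though the groups overlapped. The array carries background probe sets grouped by G and C content, and the 8 sets richest in these bases had a mean log2 signal of 7.03 ± 0.082 (SD, n = 4) in PA arrays and 6.77 ± 0.15 in DMSO arrays (exact two-sided permutation test, p = 0.0571). By array this mean was 7.117, 7.02, 6.92 and 7.048 in PA replicates 1 to 4, against 6.701, 6.59, 6.945 and 6.832 in DMSO replicates 1 to 4. When this mean was added to the model (background-adjusted fit), 4 of the 10 genes stayed raised, namely NFKBIZ, RELB, NFKBIA and NFKB1, at 6 probe sets. The standard errors of the 36 called probe sets of the members and of the pathway genes described further on were 1.48 times as large in that fit at the median, so a lost call is given with its change. NFKBIB and NFKBIE no longer passed, with changes of 0.14 and 0.26 at the brightest probe set on the log2 scale. The part of this background in the changes was not tested beyond that fit.

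The promoters of many members hold the sequence that NF-kB itself binds. The kappa B consensus was searched on both strands of RefSeq windows of 300 bases, 250 before and 50 after the annotated start of a gene (GRCh38.p14), with overlapping matches counted as 1 site. Windows were at hand for 8 of the 10 genes, not for RELB and NFKBIE, and 9 of their 14 windows held a site, against 11.3% of 35116 windows of all genes. RELA was the 1 gene of the 8 with no match, while NFKB2, REL and BCL3, which were not called, each held a match, so a match did not separate called genes from the others. For 6 of the 7 genes with a match, 1 site is shown in 5′ to 3′ direction with the match in capitals, since these are the letters that NF-kB dimers are known to bind. The windows lie at chr4:102501300-102501329 (NFKB1, match from base -49 relative to the start), chr10:102394462-102394490 (NFKB2, from -107), chr2:60881518-60881546 (REL, from -47), chr14:35404811-35404840 on the minus strand (NFKBIA, from -81), chr19:38899932-38899960 (NFKBIB, from -28) and chr3:101827757-101827786 (NFKBIZ, from -223).
NFKB1: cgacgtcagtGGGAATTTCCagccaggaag
NFKB2: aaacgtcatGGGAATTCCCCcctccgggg
REL: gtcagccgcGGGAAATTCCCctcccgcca
NFKBIA: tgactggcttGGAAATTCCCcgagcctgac
NFKBIB: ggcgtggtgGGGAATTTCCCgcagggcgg
NFKBIZ: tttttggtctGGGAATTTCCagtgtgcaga
A match is a stretch of letters and does not show that a factor was bound in these cells.

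NFKB1 encodes p105, a long precursor that is processed to the DNA-binding subunit p50. Its only probe set had log2 signals of 9.79, 9.72, 9.70 and 9.77 in PA arrays, against 9.25, 9.32, 9.35 and 9.32 in DMSO arrays. The lowest PA array was 0.35 above the highest DMSO array, and both groups were tight. The log2 change was 0.44 with a standard error of 0.047 (1.35-fold, adjusted p = 8.19e-04 from limma). The background-adjusted change was 0.38 (adjusted p = 0.0419).

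NFKB2 encodes p100, the precursor of p52, which acts both as a subunit and as an inhibitor of RELB dimers. At its probe set the log2 signals were 6.45, 6.15, 6.18 and 6.17 in PA arrays, against 5.99, 5.60, 6.08 and 5.97 in DMSO arrays. The groups did not overlap, but DMSO replicate 2 and PA replicate 1 stood apart from the others of their group. The log2 change of 0.33 (95% interval 0.08 to 0.57) did not pass (adjusted p = 0.0704 from limma). With an intensity trend in limma it did (adjusted p = 0.0432), whereas the background-adjusted change was 0.02. The difference between the changes of NFKB2 and NFKB1 was -0.11 and was not larger than the spread between arrays (exact two-sided permutation test, p = 0.429).

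RELB, the activating partner of p52 in the noncanonical branch, was the most strongly raised subunit. Its probe set had log2 signals of 7.55, 7.45, 7.41 and 7.47 in PA arrays and of 6.56, 6.58, 6.80 and 6.85 in DMSO arrays. The groups were well apart, and DMSO replicates 3 and 4 were higher than DMSO replicates 1 and 2. On the log2 scale PA raised the signal by 0.77 with a standard error of 0.076 (1.71-fold, adjusted p = 5.78e-04 from limma), the rank 31 from the highest among 15226 genes. The background-adjusted change was 0.57 (adjusted p = 0.0257).

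RELA encodes p65, the main activating subunit of classical NF-kB. At its brightest probe set the log2 signals were 8.98, 8.86, 8.94 and 8.85 in PA arrays and 9.05, 9.06, 9.05 and 8.99 in DMSO arrays. All PA arrays were below all DMSO arrays, though PA replicate 1 and DMSO replicate 4 differed by the last digit alone. The log2 change of -0.13 (95% interval -0.24 to -0.02) did not pass (adjusted p = 0.0998 from limma). It did in an analysis of variance of treatment within MIA PaCa-2 with q-values, a reduced form of the study's model, which also had cell line as a factor. With the mean of its tested probe sets the change was 0.02. The other RELA probe sets were close to the background, with PA signals of 3.65 to 4.64 and DMSO signals of 3.60 to 4.10, and 1 of them was not tested.

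REL, or c-Rel, is an activating subunit best known from lymphoid cells. Its brightest probe set had log2 signals of 6.78, 6.78, 6.75 and 6.71 in PA arrays and of 6.62, 6.47, 6.67 and 6.69 in DMSO arrays. The groups were separated by 0.02 at the closest pair of arrays. PA and DMSO differed by 0.14 on the log2 scale (95% interval 0.01 to 0.27, adjusted p = 0.123 from limma). At the other probe set they differed by -0.0025 (adjusted p = 0.983), so neither probe set passed. The background-adjusted changes were 0.02 at the brightest probe set (adjusted p = 0.904) and 0.15 at the other (adjusted p = 0.355).

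Among the activating subunits the change of RELB differed from that of RELA. The 6 pairs of members were chosen with earlier results of these data known. Their p-values therefore describe these pairs and are not an independent test. Signals of RELB minus those of RELA within the same array were on average 0.90 higher in PA than in DMSO arrays on the log2 scale (exact two-sided permutation test, p = 0.0286, adjusted p = 0.0343 over 6 pairs of members). For REL minus RELA the difference was 0.27 with the same p values, but only 0.046 with the mean of the tested probe sets of each gene (adjusted p = 0.743 by the same exact test). With 4 arrays against 4, 0.0286 is the smallest p this test can give. Neither REL nor RELA had passed in limma on its own.

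**Figure D2:**
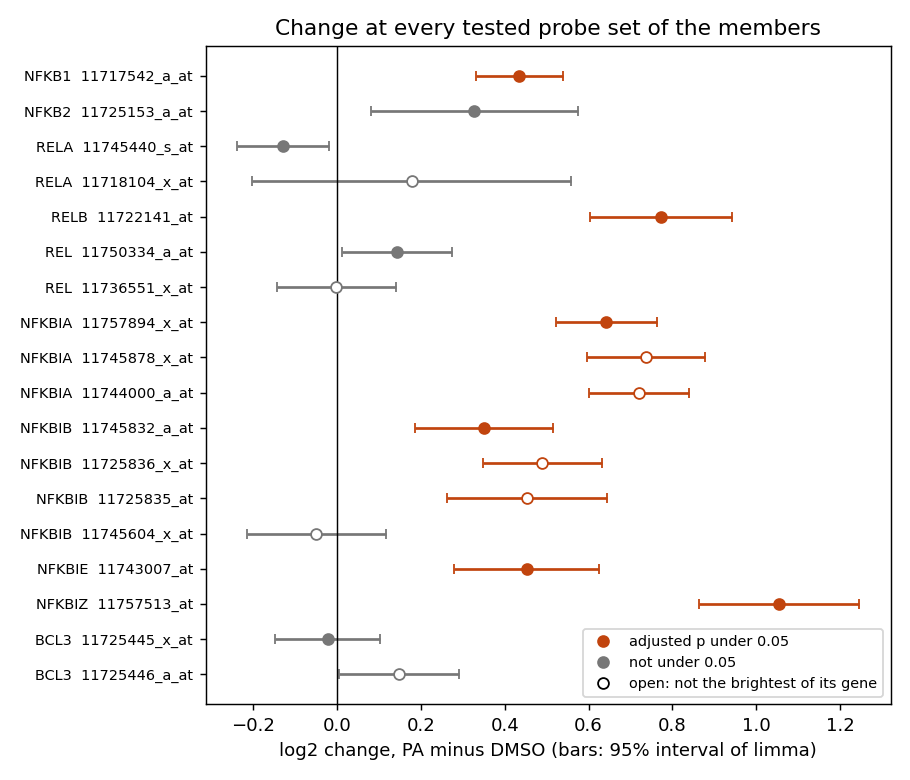
Log2 change, PA minus DMSO, with the 95% interval of limma (horizontal axis) at the 18 tested probe sets of the members (vertical axis); orange marks an adjusted p under 0.05 and open circles the probe sets that are not the brightest of their gene. The 3 probe sets of NFKBIA lie together between 0.64 and 0.74, while 1 of the 4 of NFKBIB lies at -0.05.

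The classical inhibitors were raised in all 3 genes, at 7 of 8 probe sets. NFKBIA encodes IkBα, the inhibitor that is degraded fastest after IKK activation and whose resynthesis ends the response. At the brightest of its 3 probe sets the log2 signals were 11.82, 11.80, 11.86 and 11.71 in PA arrays, against 11.10, 11.11, 11.18 and 11.23 in DMSO arrays. Every PA array was at least 0.48 above every DMSO array. The increase was 0.64 on the log2 scale with a standard error of 0.053 (1.56-fold, adjusted p = 2.99e-04 from limma). The other probe sets gave log2 changes of 0.74 and 0.72, with adjusted p = 3.38e-04 and 1.80e-04 in the same test. The set at 0.72 is the 1 of the 3 that is not marked by the manufacturer as able to bind transcripts of other genes. Background-adjusted, the changes at the 3 probe sets were 0.60 to 0.66, and all 3 passed. The 250 bases before the NFKBIA start are given here because this gene is the prototype of the feedback loop (chr14:35404750-35404999, minus strand, GRCh38.p14, kappa B match in capitals).
NFKBIA: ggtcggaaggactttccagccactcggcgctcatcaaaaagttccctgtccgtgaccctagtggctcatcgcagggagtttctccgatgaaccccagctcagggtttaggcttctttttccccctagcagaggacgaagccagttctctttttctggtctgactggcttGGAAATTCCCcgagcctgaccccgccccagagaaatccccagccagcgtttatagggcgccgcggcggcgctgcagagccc

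NFKBIB encodes IkBβ, which is degraded more slowly. Its brightest probe set had log2 signals of 6.65, 6.70, 6.58 and 6.65 in PA arrays and of 6.20, 6.16, 6.48 and 6.34 in DMSO arrays. The groups were 0.10 apart at their closest, with DMSO replicate 3 the highest of its group. This was an increase of 0.35 on the log2 scale with a standard error of 0.073 (1.27-fold, adjusted p = 0.0129 from limma). At 2 further probe sets the log2 changes were 0.49 and 0.45 (adjusted p = 1.72e-03 and 8.16e-03 in the same test), whereas the dimmest, with mean signals of 5.30 in PA and 5.35 in DMSO arrays, changed by -0.05 (adjusted p = 0.680). Background-adjusted, the change at the brightest probe set was 0.14 (adjusted p = 0.347) and 0.22 at the set with 0.45 (adjusted p = 0.247). At the set with 0.49 it stayed at 0.49 but missed the threshold (adjusted p = 0.0579). That set and the dimmest are marked by the manufacturer as able to bind transcripts of other genes.

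NFKBIE encodes IkBε, an inhibitor induced late in the response. Its single probe set had log2 signals of 8.60, 8.67, 8.56 and 8.56 in PA arrays, against 8.02, 8.0, 8.28 and 8.28 in DMSO arrays. The groups did not overlap, and DMSO replicates 3 and 4 were above DMSO replicates 1 and 2, as for RELB. DMSO replicates 3 and 4 also had the higher GC-rich background, and its part in this spread was not tested. The increase was 0.45 on the log2 scale with a standard error of 0.077 (1.37-fold, adjusted p = 5.42e-03 from limma). In the background-adjusted fit it was 0.26 (adjusted p = 0.175).

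On the log2 scale the signal of NFKBIA changed more than those of the other classical inhibitors. The 3 probe sets differed in brightness, with DMSO means of 11.155 for NFKBIA, 6.295 for NFKBIB and 8.145 for NFKBIE. The part of brightness in the size of these changes was not tested. Within the same array, NFKBIA minus NFKBIB was 0.29 higher in PA than in DMSO arrays on the log2 scale, and NFKBIA minus NFKBIE was 0.19 higher (exact two-sided permutation tests, adjusted p = 0.0343 each). NFKBIA minus NFKBIE no longer passed when any 1 of the 4 PA arrays or DMSO replicate 3 was left out (adjusted p of 0.0686 to 0.103). The same held for REL minus RELA when any 1 PA array was left out (adjusted p of 0.0686 to 0.0857, exact tests). RELB minus RELA and NFKBIA minus NFKBIB then had differences of 0.88 to 0.93 and 0.25 to 0.32, each at the smallest unadjusted p that 3 against 4 arrays allow (0.0286), and their adjusted p of 0.0571 reflects the other pairs.

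**Figure D3:**
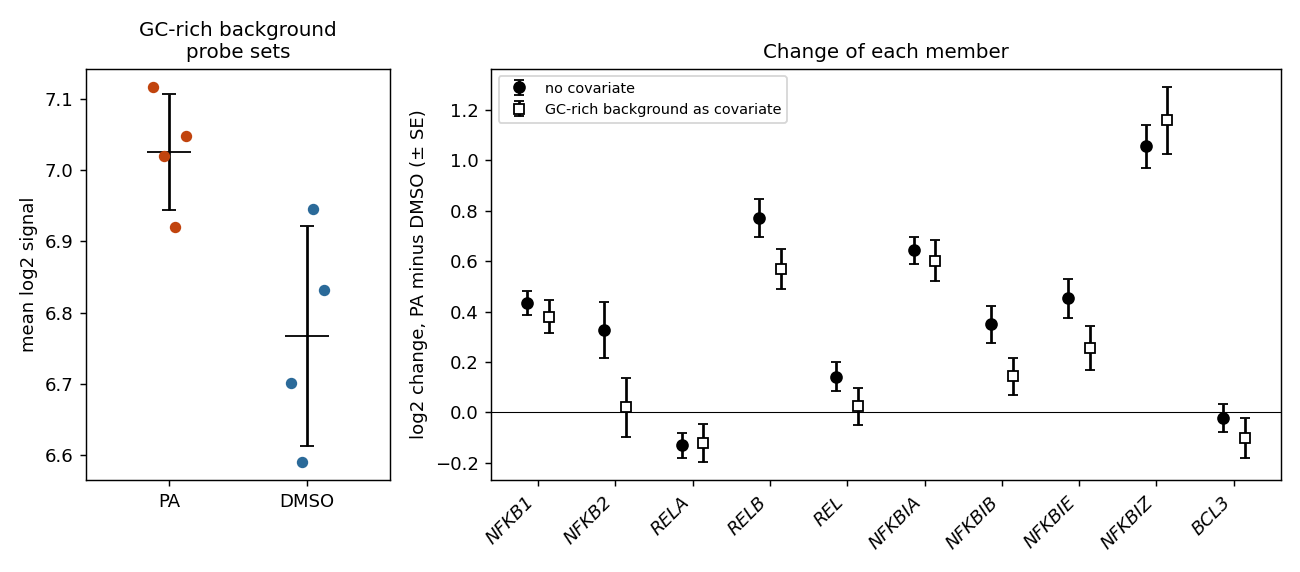
Left, mean log2 signal of the 8 GC-rich background probe sets in PA (orange) and DMSO (blue) arrays with mean and SD. Right, log2 change of each member, PA minus DMSO, with its standard error, without a covariate (filled) and with that background mean as a covariate (open). NFKBIZ and NFKBIA change little between the fits, whereas NFKB2 and REL drop to 0.02, NFKBIB to 0.14 and NFKBIE to 0.26.

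NFKBIZ encodes IkBζ, a nuclear IkB protein that is itself made upon NF-kB activation and is needed for a set of secondary response genes. It changed most of all members. Its probe set had log2 signals of 9.90, 10.24, 10.13 and 10.06 in PA arrays and of 8.95, 9.07, 8.91 and 9.18 in DMSO arrays. The lowest PA array was 0.72 above the highest DMSO array, and no array stood apart. The increase was 1.06 on the log2 scale with a standard error of 0.085 (2.08-fold, adjusted p = 2.59e-04 from limma), the rank 15 among 15226 genes. In the background-adjusted fit it was 1.16 (adjusted p = 0.0138). NFKBIZ has 2 annotated starts in the RefSeq windows, each with 1 kappa B match, and the 250 bases before each are printed because this gene led the family (chr3:101827740-101827989 and chr3:101849264-101849513, plus strand, GRCh38.p14). The array does not tell transcripts of these starts apart.
NFKBIZ upstream start: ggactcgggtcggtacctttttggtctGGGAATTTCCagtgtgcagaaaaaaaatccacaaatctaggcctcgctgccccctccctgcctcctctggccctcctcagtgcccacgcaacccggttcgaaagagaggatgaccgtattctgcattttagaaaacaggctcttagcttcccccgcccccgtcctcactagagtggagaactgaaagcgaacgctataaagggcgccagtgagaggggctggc
NFKBIZ downstream start: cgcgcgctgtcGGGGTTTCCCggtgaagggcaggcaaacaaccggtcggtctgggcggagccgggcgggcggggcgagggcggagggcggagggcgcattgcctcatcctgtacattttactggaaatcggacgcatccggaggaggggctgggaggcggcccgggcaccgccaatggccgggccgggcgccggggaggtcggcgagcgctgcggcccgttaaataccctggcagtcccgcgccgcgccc

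BCL3, the other nuclear IkB protein, first known from a translocation in chronic lymphocytic leukaemia, did not pass. At its brightest probe set the log2 signals were 7.85, 7.82, 7.86 and 7.96 in PA arrays and 7.85, 7.82, 7.92 and 7.99 in DMSO arrays, so the groups overlapped nearly in full. The log2 change was -0.02 (95% interval -0.15 to 0.10, adjusted p = 0.814 from limma). The next probe set changed by 0.15 (adjusted p = 0.144), and the remaining 2, at 3.61 to 3.89 in PA and 3.55 to 3.88 in DMSO arrays, were too dim to be tested. NFKBIZ minus BCL3 within the same array was 1.08 higher in PA than in DMSO arrays on the log2 scale (exact two-sided permutation test, adjusted p = 0.0343). When any 1 PA array was left out the difference was 1.01 to 1.13, again at the smallest unadjusted p allowed (0.0286, exact test, adjusted p = 0.0571).

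**Figure D4:**
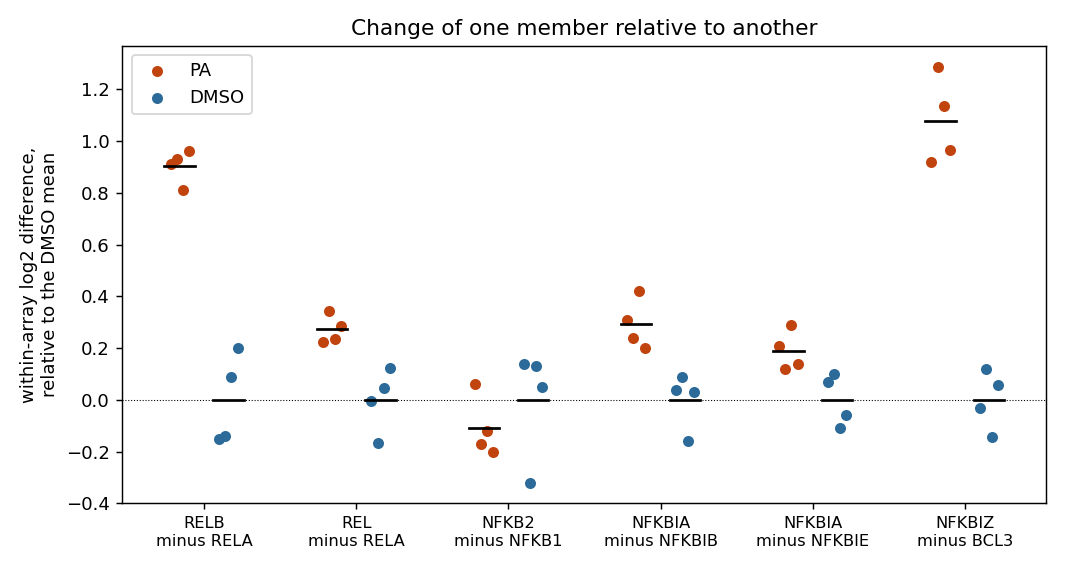
Within-array difference of the log2 signals of 2 members (vertical axis, relative to the DMSO mean of each pair) in 4 PA arrays (left, orange) and 4 DMSO arrays (right, blue), with the mean as a black line. The groups do not overlap in 5 of the 6 pairs, and they overlap in NFKB2 minus NFKB1.

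Genes that act on NF-kB and genes it switches on were read in the same fit, in which 8.23% of all genes were raised and 10.5% lowered. Their lists were chosen with earlier results of these data known, so the shares describe the listed genes and do not test the lists. Of 13 measured genes of the IKK complex and the kinases and adaptors before it, 3 were raised and 0 lowered, and the other 10 did not pass, with a median log2 change of 0.06. The raised share was 23.1%. BIRC2, a ubiquitin ligase of the TNF receptor complex, rose by 0.33 (adjusted p = 2.27e-03 from limma), TRAF3, an adaptor that restrains the noncanonical branch, by 0.24 (adjusted p = 0.0393), and MAP3K7, the kinase TAK1, by 0.20 (adjusted p = 0.0186). The probe set of BIRC2 is marked by the manufacturer as able to bind transcripts of other genes. In the background-adjusted fit BIRC2 stayed raised at 0.38 (adjusted p = 0.0385). TRAF3 at 0.09 (adjusted p = 0.645) and MAP3K7 at 0.24 (adjusted p = 0.0976) no longer passed in that fit. A single member of this list was raised without PA replicate 2 or 3. CHUK, IKBKB and IKBKG, the IKK subunits, changed by 0.06, -0.14 and 0.04 and did not pass. MAP3K14, the kinase NIK that starts p100 processing, changed by 0.19 (adjusted p = 0.193).
Of 10 genes of the ubiquitin machinery that degrades IkB and modifies the IKK complex, 0 were raised and 1 was lowered, a lowered share close to that of all genes. This was SKP1, a subunit of the ligase that recognises phosphorylated IkB, at -0.30 (adjusted p = 0.0302 from limma), and it passed in neither the background-adjusted fit nor 6 of the 8 fits without an array, those that left out a PA array or DMSO replicate 1 or 2. BTRC, which binds the phosphorylated inhibitors, changed by -0.10 and did not pass. The probe sets of SKP1 and BTRC are marked in the same way as that of BIRC2.

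Of 14 negative regulators 4 were raised and 1 was lowered, while 9 did not pass, with a median log2 change of 0.11. The raised share was 28.6% and the lowered share 7.14%. Whichever array was left out, 3 of these genes were raised and 1 was lowered. TNFAIP3, the deubiquitinase A20 and a known NF-kB target, averaged 7.50 ± 0.12 in PA arrays and 6.42 ± 0.21 in DMSO arrays (SD, n = 4), a log2 change of 1.08 (2.11-fold, adjusted p = 5.52e-04 from limma). CYLD, another deubiquitinase of the pathway, rose by 0.32 and ZC3H12A, an RNase of cytokine transcripts, by 0.36 (adjusted p = 0.0107 and 0.0147 in the same test). N4BP1 rose by 0.16 (adjusted p = 0.0405 in the same test). PDLIM2, which promotes the degradation of nuclear p65, was lowered by PA, with a log2 change of -0.50 (adjusted p = 1.45e-03). The probe set of TNFAIP3 is marked by the manufacturer as able to bind transcripts of other genes. After adjustment for the background TNFAIP3 stayed raised and PDLIM2 lowered. The changes were then 0.22 for CYLD, 0.15 for ZC3H12A and 0.155 for N4BP1, which no longer passed. Of 2 other genes named after IkB, NFKBIL1 was lowered (log2 change -0.27, adjusted p = 4.84e-03) and NFKBID changed by 0.10 (adjusted p = 0.399).
Of 23 measured target genes of NF-kB 14 were raised, 10 of them at least 1.5-fold, and 2 were lowered, while 7 did not pass, with a median log2 change of 0.42. The raised share was 60.9%, in a list chosen with earlier results known, and the lowered share, 8.70%, did not exceed that of all genes. The smallest p values were those of the chemokines CXCL8, CXCL1, CXCL2 and CXCL3, with log2 changes of 1.26, 1.03, 1.20 and 1.35 (adjusted p = 5.09e-06 to 7.05e-05 from limma). The probe sets of CXCL8, CXCL1 and CXCL2, but not that of CXCL3, are marked by the manufacturer as able to bind transcripts of other genes. The lowered targets were ICAM1, an adhesion molecule, at -0.53 and the chemokine CCL5 at -0.21, both of them picked out with their values known. The mean signals of ICAM1 were low, 4.7675 in PA and 5.295 in DMSO arrays, where the floor for testing was 4. After adjustment for the background 8 targets were raised and 0 lowered, but all 8 targets that lost the call kept a change within 1.5 times of the unadjusted one, ICAM1 at -0.55 and CCL5 at -0.23 among them. Another 10 genes of the lists were not measured, RIPK1, TRAF2, BIRC3, SOD2 and CSF2 for want of a probe set with a single symbol and CCL2, CCL20, VCAM1, BCL2A1 and PTGS2 for signals below 4 in both groups. A single target was lowered when any 1 PA array or DMSO replicate 1, 2 or 3 was left out.

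**Figure D5:**
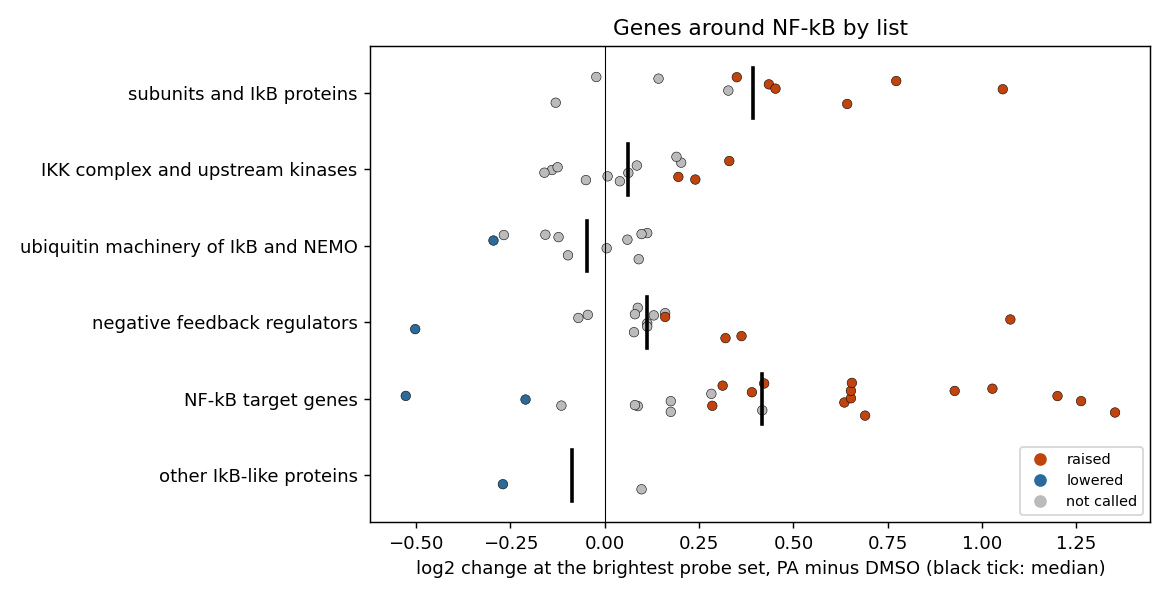
Log2 change at the brightest probe set, PA minus DMSO (horizontal axis), of the 10 members and of the genes of each list (vertical axis); orange is raised, blue lowered and grey not called by limma, and black ticks are medians. The medians are 0.39 for the members, 0.42 for the targets and 0.06 for the IKK complex and upstream kinases.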

How the data were processed

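Total RNA of MIA PaCa-2 cells was labelled with the 3′ IVT Express kit and hybridized to Human PrimeView arrays. The deposited log2 values were made by the authors in Partek with the RMA method, which corrects for background, equalizes the signal distributions of the arrays and summarizes probes, and are given to 2 decimals. Whether arrays of another cell line entered the normalization is not given in the sources used here. Gene symbols came from the platform annotation (44994 probe sets with 1 symbol, 1832 with several, 2569 with none, of which some are among the 102 controls) and 0 changed when updated through the gene ID. Groups were taken from the sample titles.

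PA was compared with DMSO by lmFit and eBayes in limma 3.58.1 (R 4.3.3) over 38748 probe sets, without controls and with a higher group mean of at least 4. A call needed an adjusted p under 0.05 at any fold. A gene was read at its brightest probe set in the same fit, which gave 15226 genes. Pairs of members were compared by exact permutation tests. The fit was tested on simulated data. The members, lists and tests were chosen with earlier results of these data known. All members are named, with up to 4 called genes of smallest adjusted p per list. Beside them stand the IKK subunits, MAP3K14, BTRC, N4BP1, NFKBID, ICAM1 and CCL5, chosen after their values were seen. The alternatives were 2 filters on low signals, 2 normalizations, weights per array, an intensity trend, a replicate block, a covariate for the GC-rich background, an analysis of variance of treatment within MIA PaCa-2 with q-values (the study's model also had cell line and its interaction), a fold threshold, an average over the probe sets of each gene, and the omission of each array in turn. Figures were drawn with matplotlib 3.10.9.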

Additional observations from a re-analysis of the deposited data

Results flagged for a closer look

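In 36 groups of 4 arrays (18 tested probe sets of the members in PA and in DMSO), 2 arrays lay far from the rest of their group, where chance gives about 1 in 20 groups. NFKB2 was at a log2 signal of 6.45 in PA replicate 1, against 6.15 to 6.18 in the other PA arrays. Its log2 change was 0.33 with that array and 0.26 without it (adjusted p = 0.151 from limma). PA replicate 1 was also the array with the highest GC-rich background, 7.117, and the part of this background in the NFKB2 value was not tested. RELA was at 8.99 in DMSO replicate 4, against 9.05 to 9.06 in the other DMSO arrays, a gap of 0.06 on the log2 scale. Its log2 change was -0.13 with that array and -0.15 without it (adjusted p = 0.110).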

How the results depend on the processing

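The counts of raised members (10 probe sets, 6 genes) were the same whichever array was left out and with the replicate number as a block. Arrays with the same number did not deviate together from their group means (correlations of -0.153 to 0.0527), so the numbers were not taken to pair the arrays. Raised probe sets numbered 6 with the covariate for GC-rich background and 5 with a change of at least 1.5-fold, which left 3 raised genes. An analysis of variance of treatment alone, reduced from the study's model with cell line as a second factor, gave 1 lowered probe set and 1 lowered gene, RELA. With the replicate block 1 gene of the list of the IKK complex and upstream kinases, 2 negative regulators and 14 targets were raised. In that fit 0 ubiquitin genes and 1 target were lowered. With the covariate 1 gene of the IKK and upstream list, 1 negative regulator and 8 targets were raised. Under it 0 ubiquitin genes, 0 targets and 0 other IkB-like genes were lowered. Standard errors were then 1.48 times as large at the median. All 8 lost targets, NFKBIL1 (-0.29), MAP3K7 (0.24), CYLD (0.22) and N4BP1 (0.155) kept changes within 1.5 times of the unadjusted ones. Smaller changes were left in SKP1 (-0.10), TRAF3 (0.09) and ZC3H12A (0.15). Leaving out each array gave 1 to 3 raised and 0 to 1 lowered genes of the IKK and upstream list. It also gave 0 to 2 lowered ubiquitin genes and 1 to 2 lowered targets. Raised negative regulators numbered 3 in each of these fits, against 4 with all arrays. The differences of change then ranged from 0.85 to 0.97 for RELB minus RELA, 0.22 to 0.31 for REL minus RELA, 0.24 to 0.32 for NFKBIA minus NFKBIB, 0.15 to 0.22 for NFKBIA minus NFKBIE and 1.01 to 1.13 for NFKBIZ minus BCL3. With the mean of all probe sets REL minus RELA was 0.046. The cause of these shifts was not tested. No call of a member changed direction under an alternative.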
